A study of Mus musculus with 2 samples.

Results

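A set of 9 transcription factors that steer intestinal cells into the hormone-producing lineage was followed in mouse enteroids: Neurog3, Neurod1, Neurod2, Insm1, Fev, Pax4, Pax6, Nkx2-2 and Isl1. They were taken by name, and all 9 had rows in the count tables of both libraries, out of 16665 genes listed in at least 1 of them. The enteroids, small epithelial structures grown in Matrigel, came from ileal crypts of 4-month-old C57Bl6/129sv mice, and live cells were sorted and captured for single-cell 3′ RNA-seq with unique molecular identifiers (UMIs). The Taf4IEC library carries loxP-flanked Taf4 alleles and a tamoxifen-inducible Cre driven by the villin promoter, which is active in intestinal epithelium, and was given 1 µM 4-hydroxytamoxifen (4-OHT) for 3 days to delete Taf4, part of the TFIID complex that starts transcription at promoters. The control library is labelled wild type with the ethanol vehicle, whereas the methods of the study describe Taf4 lox/lox enteroids without Cre that also received 4-OHT, so which treatment the control cells had is not settled here. There was 1 library per condition. No difference between the conditions could therefore be tested against replicate spread, and the 95% intervals given below cover counting error only.

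Enteroendocrine cells are scattered hormone-secreting cells of the gut epithelium that arise from crypt stem cells through secretory precursors. When Notch signalling is low in such a precursor, the basic helix-loop-helix factor Neurog3 is switched on for a short time and commits the cell to the endocrine fate. Later factors then take over: Neurod1 and Insm1 in most endocrine cells, and Pax4, Pax6, Nkx2-2, Isl1 and Fev in patterns that differ between cells making serotonin and cells making peptide hormones.

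Neurog3, Neurod1 and Neurod2 belong to a family that binds the E-box, CANNTG, so the promoters of these 3 genes are printed here with every CANNTG in capitals, together with that of Nkx2-2, a homeodomain factor whose promoter also held several. Each is the RefSeq sequence (GRCm38.p6) of the 250 bases before a listed start of the gene, written 5′ to 3′ on its strand. For Neurog3, Neurod1 and Neurod2 that start is the outer edge of the gene. For Nkx2-2 it lies inside the gene, which spans chr2:147176485-147195434. Neurog3 lies at chr10:62132840-62133089 on the plus strand, Neurod1 at chr2:79456637-79456886, Neurod2 at chr11:98329646-98329895 and Nkx2-2 at chr2:147186403-147186652, these 3 on the minus strand.
Neurog3: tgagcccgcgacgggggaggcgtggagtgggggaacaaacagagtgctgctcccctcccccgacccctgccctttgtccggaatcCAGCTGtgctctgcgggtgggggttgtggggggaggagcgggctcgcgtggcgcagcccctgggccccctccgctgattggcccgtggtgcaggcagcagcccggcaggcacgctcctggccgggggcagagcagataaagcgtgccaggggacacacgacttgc
Neurod1: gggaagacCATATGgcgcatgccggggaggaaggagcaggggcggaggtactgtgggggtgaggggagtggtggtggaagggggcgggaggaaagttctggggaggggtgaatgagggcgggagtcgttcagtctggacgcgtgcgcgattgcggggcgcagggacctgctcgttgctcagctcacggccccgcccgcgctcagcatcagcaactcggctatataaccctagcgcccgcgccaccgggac
Neurod2: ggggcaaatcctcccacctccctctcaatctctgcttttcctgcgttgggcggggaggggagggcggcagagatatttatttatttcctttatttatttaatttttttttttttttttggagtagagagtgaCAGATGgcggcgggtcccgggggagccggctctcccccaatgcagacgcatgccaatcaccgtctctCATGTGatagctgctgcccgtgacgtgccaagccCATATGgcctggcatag
Nkx2-2: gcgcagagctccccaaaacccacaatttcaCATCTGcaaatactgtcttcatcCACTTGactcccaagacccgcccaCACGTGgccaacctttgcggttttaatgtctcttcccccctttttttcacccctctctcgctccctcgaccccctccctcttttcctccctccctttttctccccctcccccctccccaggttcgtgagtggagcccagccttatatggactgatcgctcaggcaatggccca
The motif is its own reverse complement, so a match counts for both strands. Neurog3 had 1 match, CAGCTG at -165 from the gene start. Neurod1 also had 1, CATATG at -242. Neurod2 had 3, among them CAGATG at -118. Nkx2-2 had 3, among them CATCTG at -220 from its internal start, the same 6 letters as CAGATG read on the other strand. Of the remaining members, Isl1 had 1 match, Fev had 0, and of the pair of Pax6 promoters 1 held a match. CANNTG stood in 66.2% of the 32851 mouse promoters of this length that were searched and CAGATG or CATCTG in 14.4%. Matches of these kinds were therefore common. Of the same promoters 31.8% held 2 or more CANNTG and 3.84% held 4 or more, and the share with 3 or more was not counted. The search left out 1 chromosome. Promoters for 7 of the 9 members were in the table used; Insm1 and Pax4 were not among them.

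The control library held 2563 cells with 39947009 UMIs and the Taf4IEC library 1811 cells with 24990128 UMIs. Depth per cell differed strongly, with medians of 16749 and 2254 UMIs and with 17.3% and 49.1% of cells under 2000. The libraries shared 2 cell barcodes. Taf4 itself was not lower in the library labelled knockout, with 278 UMIs in the control and 236 in Taf4IEC, a log2 ratio of 0.44 (0.18 to 0.70). A 3′ assay also counts transcripts that lack a deleted exon, so this is no check of the label. Clusters were made in each library without the 9 factors and named from markers that include none of them. Of the control cells 247 (9.64%, 8.52 to 10.8) were enteroendocrine-like, as were 204 (11.3%, 9.84 to 12.8) of the Taf4IEC cells, a difference of 1.63 points (-0.24 to 3.53). Other ways of choosing the cells gave differences from 0.33 points (-1.49 to 2.19) to 8.50 points (6.43 to 10.6). Of 10 markers of immune, stromal and endothelial cells 6 had any UMI in each library, and Ptprc, Col3a1 and Dcn had 0 in both. Of their 192 UMIs in the control 132 lay in enteroendocrine-like cells, as did 188 of 253 in Taf4IEC, 0.557 and 0.758 per 10000 in that class. Their part in the results was not tested. Scrublet called 10 control and 0 Taf4IEC doublets, too few to count as a working doublet filter, and no cell was removed.

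All 9 factors were concentrated in the enteroendocrine-like cells of both libraries. Of the 959 Neurod1 UMIs in the control, 97.1% (95.8 to 98.1) were in these cells, and of the 1434 in Taf4IEC 99.2% (98.5 to 99.6). Neurog3 was less concentrated in the control, with 76.2% of 1352 UMIs (73.8 to 78.4), than in Taf4IEC, with 93.0% of 1966 (91.8 to 94.1). The zinc-finger factor Insm1 was alike, with 76.4% of 1384 UMIs (74.0 to 78.6) and 94.9% of 1572 (93.7 to 95.9). For the other 6 factors the share lay between 91.7% and 98.6% in the control and between 97.0% and 99.5% in Taf4IEC. Every factor was more than 10-fold higher per UMI in enteroendocrine-like than in other cells, where 3.5% of 12270 control genes and 4.73% of 12065 Taf4IEC genes were. The smallest such fold was that of Neurog3 in the control, 50.7. Since the clusters were made from the genes of the same cells, these folds describe the class and test nothing.

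Within the class the 3 early and broad factors were the most abundant. Levels are UMIs per 10000 UMIs of the cells summed, and because each UMI marks 1 captured 3′ end they were not divided by transcript length. In control enteroendocrine-like cells Insm1 stood at 4.46 (4.19 to 4.74), Neurog3 at 4.35 (4.08 to 4.62) and Neurod1 at 3.93 (3.68 to 4.19). The interval of Neurog3 overlapped those of both of its neighbours. A second tier held Isl1 at 1.17 (1.03 to 1.31), Nkx2-2 at 1.04 (0.916 to 1.18), Fev at 0.890 (0.774 to 1.02) and Neurod2 at 0.789 (0.680 to 0.910), each overlapping the next. Pax6 at 0.439 (0.358 to 0.532) and Pax4 at 0.304 (0.238 to 0.382) were lowest and overlapped each other. In Taf4IEC the order had Neurog3 first at 7.37 (7.04 to 7.72), ahead of Insm1 at 6.01 (5.71 to 6.33) and Neurod1 at 5.73 (5.44 to 6.04). Nkx2-2 at 1.70 (1.54 to 1.87) and Fev at 1.57 (1.42 to 1.73) came next, above Isl1 at 1.12 (0.993 to 1.26), Neurod2 at 0.891 (0.777 to 1.02) and Pax6 at 0.754 (0.650 to 0.870), and Pax4 was again lowest at 0.234 (0.178 to 0.302). The intervals of Insm1 and Neurod1 overlapped, as did those of Nkx2-2 and Fev, Isl1 and Neurod2, and Neurod2 and Pax6.

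Outside this class levels were far lower. In enterocyte-like cells, the absorptive cells, Neurod1 had 0 UMIs in the control and 1 in Taf4IEC, and Pax4 and Pax6 had 0 in both. Stem-like cells of the control held 150 Neurog3 UMIs, a level of 0.0657 (0.0556 to 0.0771), against 6 UMIs and 0.00662 (0.00243 to 0.0144) in Taf4IEC. In Paneth/goblet-like cells, the other secretory cells, the order was the reverse, 0.0801 (0.0518 to 0.118) in the control and 0.317 (0.257 to 0.387) in Taf4IEC. The following values show that a few cells carried these sums.

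**Figure D1:**
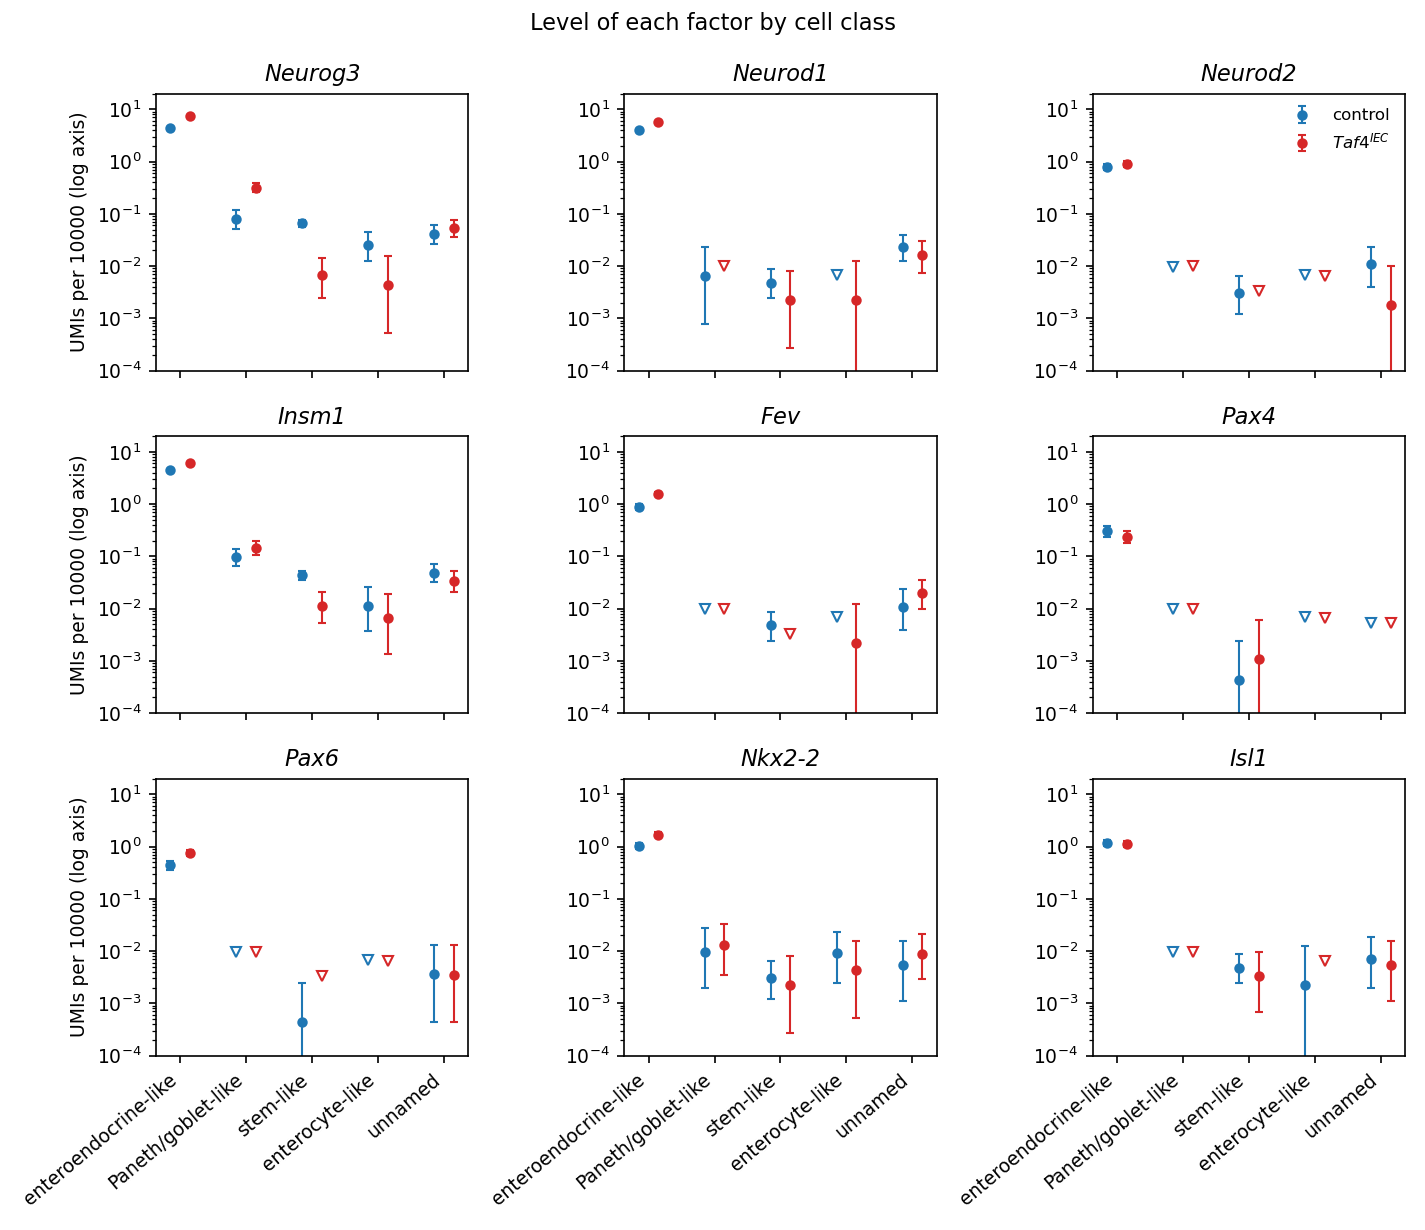
Level of each factor in UMIs per 10000 (log axis) by cell class in the control (blue) and Taf4IEC (red) library, with exact 95% Poisson intervals and open triangles at the level of 3 UMIs where none was counted. All 9 factors have their highest point in the enteroendocrine-like class, and among the other classes drawn Neurog3 and Insm1 have the highest levels. The class named tuft-like, in the control a cluster led by Rgs13, Ltc4s, Lrmp and Dll1, is not drawn, and control Neurog3 was at 0.694 there.

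Single cells with many Neurog3 UMIs stood outside the enteroendocrine-like clusters. Of the 322 Neurog3 UMIs outside them in the control, 255 were in 13 cells with 5 or more UMIs each, the highest with 68. Of these, 6 lay in a cluster of 90 cells led by Rgs13, Ltc4s, Lrmp and the Notch ligand Dll1, with Sox4 and Insm1 also among its leading genes, and held 112 Neurog3 and 59 Insm1 UMIs. The marker rule gave that cluster the name tuft-like, but its leading genes are mixed, and it is described here by those genes. Another 4 lay in a stem-like cluster led by the mitosis gene Cenpf and held 112 Neurog3, 38 Insm1 and 9 Dll1 UMIs. In Taf4IEC 4 such cells were seen, 3 of them in a Paneth/goblet-like cluster led by Muc2, where they held 91 of its Neurog3 UMIs and 38 Insm1 UMIs. All 17 of these cells had 0 Neurod1 UMIs. The 3 Taf4IEC cells had 18263 UMIs of Paneth and goblet markers and 15 of enteroendocrine markers among 85064 in all.

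Insm1 was spread over more cells of the Rgs13 and Dll1 cluster. It was seen in 41 of the 90 cells (45.6%, 35.0 to 56.4) at a level of 1.01 (0.864 to 1.18), whereas Neurog3 was seen in 7 of them (7.78%, 3.18 to 15.4). Atoh1, the factor that opens the secretory lineage, was seen in 29 of these cells and at 0.282 per 10000, and Isl1 in 0 of them. The 15 tuft-like cells of Taf4IEC, led by Lrmp, Rgs13 and Avil, held 3 Insm1 and 2 Neurog3 UMIs.

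Over all cells, every factor had a higher level per 10000 UMIs in Taf4IEC than in the control. Neurog3 was at 0.338 and 0.787, a log2 ratio of 1.22 (1.12 to 1.32). Neurod1 was at 0.240 and 0.574, a ratio of 1.26 (1.14 to 1.38). Fev, a factor linked to serotonin cells, gave 1.48 (1.25 to 1.73) and the paired-box factor Pax6 also 1.48 (1.14 to 1.84). Nkx2-2 gave 1.38 (1.16 to 1.61). These 5 of the 9 were at least 2-fold higher, where 10.5% of the 13155 genes with 20 or more UMIs were, and 0 were at least 2-fold lower, where 5.32% were. The remaining 4 were Insm1 at 0.86 (0.76 to 0.97), Neurod2 at 0.80 (0.52 to 1.08), Isl1 at 0.64 (0.40 to 0.88) and Pax4 at 0.37 (-0.15 to 0.88). The median log2 ratio was 1.22 over the members and 0.18 over all genes tested. Enteroendocrine-like cells held 5.93% of all UMIs in the control and 9.93% in Taf4IEC, and in such sums more cells of a type, or deeper ones, and more RNA per cell cannot be told apart.

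Within the enteroendocrine-like class the ratios were smaller and split the factors. Neurog3 had a log2 ratio of 0.76 (0.65 to 0.87), Fev of 0.82 (0.57 to 1.07), Pax6 of 0.78 (0.43 to 1.14), Nkx2-2 of 0.70 (0.47 to 0.94), Neurod1 of 0.55 (0.43 to 0.67) and Insm1 of 0.43 (0.32 to 0.55). For Neurod2, at 0.18 (-0.11 to 0.46), Isl1, at -0.06 (-0.31 to 0.18), and Pax4, at -0.38 (-0.90 to 0.14), the interval held 0. With ribosomal and low-quality genes left out of the total, the intervals of Isl1 at -0.29 (-0.53 to -0.04) and Pax4 at -0.60 (-1.13 to -0.08) lay below 0. None of the 9 was at least 2-fold higher or lower, where 7.83% and 2.33% of 10173 genes were, and the median was 0.55 over the members and 0.25 over all genes. The class was made of different clusters in each library. In the control it held 205 cells led by Gcg, Chgb and Cck and 42 cells with a median of 869 UMIs, and in Taf4IEC 99 cells led by Nts, Pyy, Gip and Neurog3, 29 led by Tph1, Tac1 and Scn3a and 76 with a median of 998.5 UMIs. Median depth of the class was 9761 and 12005 UMIs. Markers of Paneth and goblet cells stood at 35.2 and 131 per 10000 in the class, markers of enterocytes at 27.4 and 56.3, and RNAs linked to low-quality cells (Gm42418, AY036118, Malat1 and Lars2) at 147 and 216. Their part in the ratios was not tested.

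In all other cells together the direction was not the same. Of the 6 factors with 20 or more UMIs there, 0 were at least 2-fold higher and 1, Insm1, at least 2-fold lower (327 UMIs in the control and 80 in Taf4IEC, log2 ratio -1.29, -1.66 to -0.94), where 8.32% and 6.22% of 12612 genes were. Neurog3 gave -0.49 (-0.79 to -0.20). Of the 327 Insm1 UMIs 165 were in the Rgs13 and Dll1 cluster, which held 4.08% of all control UMIs. The tuft-like cells of Taf4IEC held 0.856% of the UMIs there, but they were not a match for that cluster. Tuft markers stood at 1.30 per 10000 in the control cluster and at 30.0 in the Taf4IEC cells, and stem markers at 17.5 and 6.08.

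**Figure D2:**
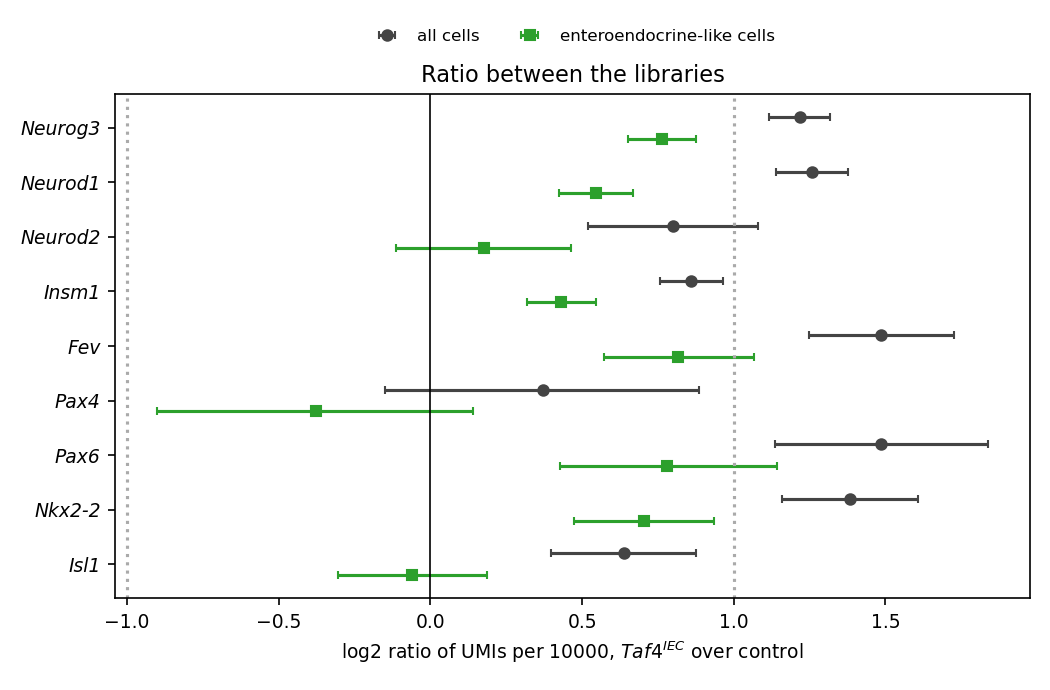
Log2 ratio of UMIs per 10000, Taf4IEC over control, for each factor in all cells (grey circles) and in enteroendocrine-like cells (green squares), with exact 95% counting intervals and dotted lines at 2-fold. Over all cells 5 factors lie beyond 2-fold, and none does within the enteroendocrine-like class.

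To compare cells at the same depth, each was thinned to 5000 UMIs, which kept 180 control and 124 Taf4IEC enteroendocrine-like cells and left out 67 and 80 shallower ones. Before thinning the kept cells had medians of 11894.5 and 18789.5 UMIs. Insm1 was then the factor seen in most cells, 79.4% of control cells (72.8 to 85.1) and 84.7% of Taf4IEC cells (77.1 to 90.5). Neurod1 followed with 62.8% (55.3 to 69.9) and 74.2% (65.6 to 81.6), and Neurog3 with 41.1% (33.8 to 48.7) and 52.4% (43.3 to 61.5). Pax4 was the rarest, in 11.1% (6.92 to 16.6) and 11.3% (6.31 to 18.2). Of enterocyte-like cells, 3 of 198 in the control and 1 of 110 in Taf4IEC had a UMI of any of the 9. Their medians before thinning were 22569.5 and 43020 UMIs. Paneth/goblet-like cells gave 8 of 171 and 4 of 96, and of 87 control cells of the Rgs13 and Dll1 cluster 61 had none.

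Counts per cell were uneven. Among control cells at 5000 UMIs the median Neurog3 count was 0 and the highest 15, and the 18 cells with most Neurog3 held 48.5% of its UMIs. In Taf4IEC the median was 1 and the highest 39, and the top 12 cells held 51.3%. Pax4 had the largest share in those numbers of cells, 93.1% and 88.9%, and Insm1 was among the most even, with 35.5% and 27.5%. Pax4 was seen in only 20 and 14 cells, so its large share was set by its low count.

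Most enteroendocrine-like cells carried several factors at once. At 5000 UMIs, 162 of 180 control cells (90.0%, 84.7 to 94.0) and 117 of 124 Taf4IEC cells (94.4%, 88.7 to 97.7) had at least 2, a difference of 4.35 points (-2.54 to 10.7). This value depended on the random draw of the thinning. A further draw gave 87.2% and 96.8%, a difference of 9.55 points (2.95 to 15.8), and over 100 draws the difference ran from 2.24 to 11.8 points with a median of 7.61, its interval above 0 in 59 of them. The control had 1 such cell among 198 enterocyte-like cells and Taf4IEC 0 of 110, where 3 cells would be 2.73%. Paneth/goblet-like cells gave 2 of 171 and 2 of 96. Of 87 control cells of the Rgs13 and Dll1 cluster 4 had 2 factors and 2 had 3. At least 3 factors were seen in 67.8% (60.4 to 74.5) and 82.3% (74.4 to 88.5), and 5 or more in 20.0% (14.4 to 26.6) and 33.9% (25.6 to 42.9). Over the 100 draws the difference for at least 3 ran from 7.42 to 25.6 points and that for 5 or more from 4.28 to 24.9, with the interval above 0 in 94 and 72 draws. A single control cell reached 7 factors and 2 Taf4IEC cells reached 8, and 0 cells had all 9.

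Neurog3 was seen together with some factors and apart from others. In the control, 32 of 74 cells with Neurog3 also had Neurod2 (43.2%, 31.8 to 55.3), against 15 of 106 cells without it (14.2%, 8.14 to 22.3). Taf4IEC gave 49.2% (36.6 to 61.9) and 16.9% (8.44 to 29.0), so the pair was found together more often in both libraries. Insm1 was in 91.9% (83.2 to 97.0) of control cells with Neurog3 and in 70.8% (61.1 to 79.2) of those without. In Taf4IEC these shares were 90.8% (81.0 to 96.5) and 78.0% (65.3 to 87.7), with intervals that overlapped. Fev went the other way, in 12.2% (5.71 to 21.8) of control cells with Neurog3 and 42.5% (32.9 to 52.4) without, and in 27.7% (17.3 to 40.2) and 59.3% (45.7 to 71.9) in Taf4IEC. Pax6 did the same, with 4.05% (0.844 to 11.4) and 18.9% (11.9 to 27.6) in the control and 9.23% (3.46 to 19.0) and 32.2% (20.6 to 45.6) in Taf4IEC. In the control Neurod1 was seen in 43.2% (31.8 to 55.3) of cells with Neurog3 and 76.4% (67.2 to 84.1) of cells without, while in Taf4IEC these were 67.7% (54.9 to 78.8) and 81.4% (69.1 to 90.3).

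Among cells with Neurog3, 3 later factors were seen more often in the Taf4IEC library. There the share that also had Neurod1 was 24.4 points higher (6.92 to 40.4), the share with Nkx2-2 18.9 points higher (1.31 to 35.4) and the share with Fev 15.5 points higher (1.34 to 29.6). Over the 100 draws these intervals lay above 0 in 98, 42 and 72, so the one for Nkx2-2 held 0 in most draws. Fev was also seen more often in Taf4IEC cells without Neurog3. The differences for Pax4 at 4.57 points (-7.60 to 17.2), Pax6 at 5.18 (-4.16 to 15.5), Isl1 at 2.81 (-11.7 to 17.6), Neurod2 at 5.99 (-11.5 to 23.1) and Insm1 at -1.12 (-12.1 to 9.32) had intervals holding 0. Of the 72 ordered pairs of factors 8 had an interval wholly above 0 and 0 wholly below, and over the 100 draws 2 to 17 were above and 0 to 2 below. The intervals are not adjusted for the number of pairs, and the pairs share cells. In cells with Isl1, 25 of 44 control (56.8%) and 17 of 25 Taf4IEC cells (68.0%) also had Nkx2-2, and of cells with Pax6 22 of 23 (95.7%) and 22 of 25 (88.0%) had Neurod1.

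**Figure D3:**
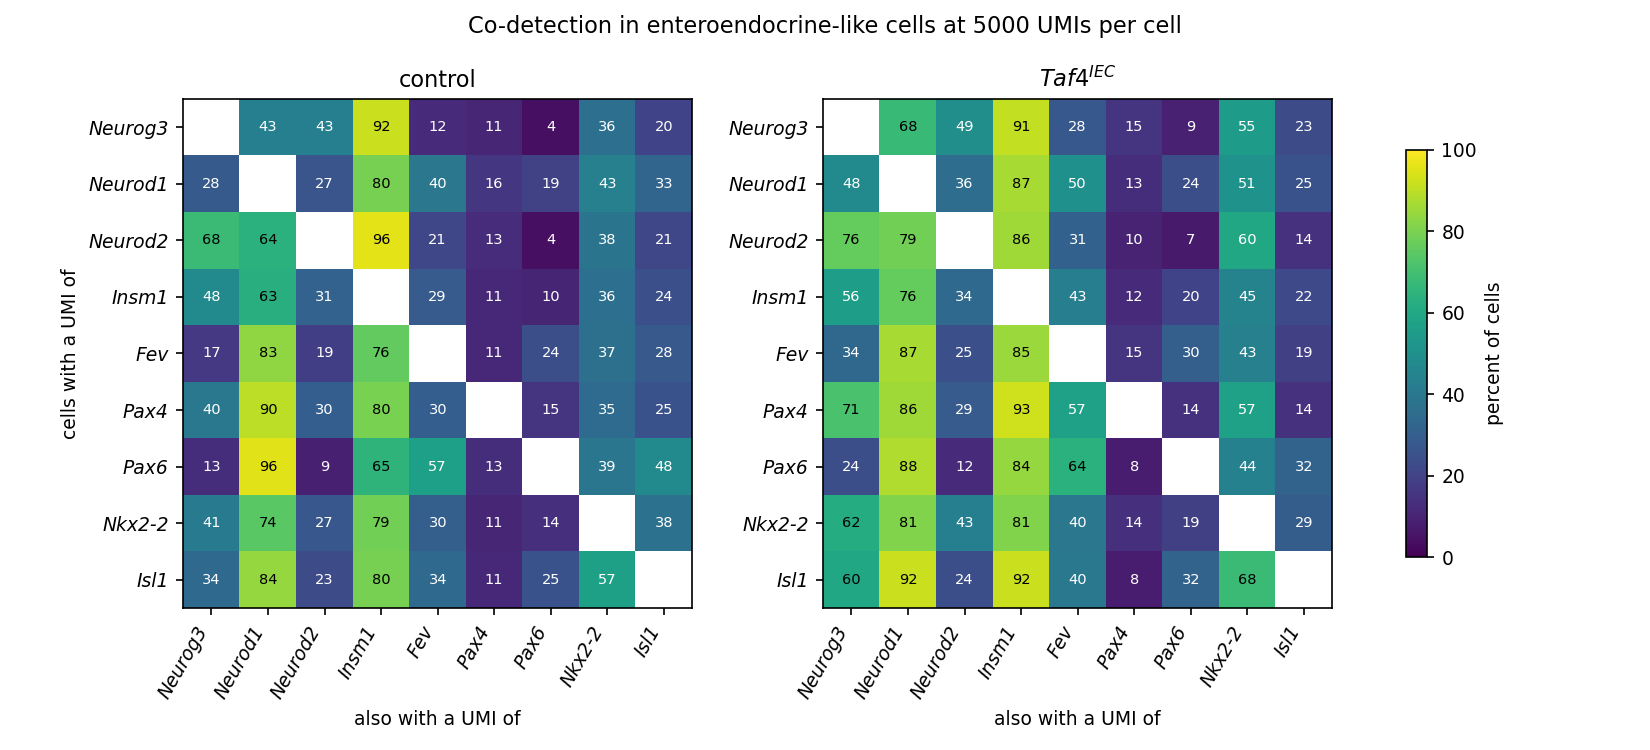
Percent of enteroendocrine-like cells with a UMI of the factor in the row that also had a UMI of the factor in the column, in the control (left, 180 cells) and Taf4IEC (right, 124 cells), all at 5000 UMIs per cell. The share of Neurog3 cells with Neurod1 is 43.2% in the control and 67.7% in Taf4IEC.

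Sorting the same cells by their Neurog3 count gave a graded view. The control had 106, 36 and 38 cells with 0, 1 to 4 and 5 or more Neurog3 UMIs of 5000, and Taf4IEC 59, 33 and 32. These are ranges of 1 count and not cell types, with 12 and 10 cells at 4 or 5 UMIs. Levels of the other factors were taken from all UMIs of the cells. Chga, the granule protein of mature endocrine cells, was 23.4, 9.41 and 1.95 per 10000 across the 3 ranges in the control and 44.3, 18.4 and 6.01 in Taf4IEC. Its median count per thinned cell was 5.5, 0.5 and 0 in the control and 12, 8 and 0.5 in Taf4IEC. Sox4, a factor of early endocrine precursors, ran the opposite way, at 4.65, 13.3 and 21.2 in the control and 4.09, 10.3 and 20.2 in Taf4IEC.

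Insm1 and Neurod2 were higher where Neurog3 was higher. Insm1 was at 2.95 (2.66 to 3.27), 5.04 (4.41 to 5.73) and 8.34 (7.58 to 9.17) in the control and at 4.45, 6.05 and 9.42 in Taf4IEC. Neurod2 was at 0.383, 1.22 and 1.54 in the control and at 0.433, 1.15 and 1.53 in Taf4IEC. In the top range the libraries differed by log2 ratios of 0.17 (-0.00 to 0.36) for Insm1 and -0.01 (-0.45 to 0.43) for Neurod2.

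Fev and Pax6 were lower where Neurog3 was higher. Fev was at 1.25, 0.761 and 0.212 in the control and at 2.09, 1.47 and 0.954 in Taf4IEC. Pax6 was at 0.625, 0.283 and 0 in the control and at 1.27, 0.703 and 0 in Taf4IEC. In this draw the 70 cells of the top range thus held no Pax6 UMI at full depth in either library. Over the 100 draws the Pax6 level there had a median of 0 in both and reached at most 0.080 in the control and 0.062 in Taf4IEC. Isl1, a LIM-homeodomain factor, was lowest in the top range, at 1.37, 1.76 and 0.270 in the control and 0.925, 2.05 and 0.636 in Taf4IEC.

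Pax4 and Isl1 were lower in Taf4IEC in the cells without a Neurog3 UMI, but by amounts that moved with the draw. Pax4 was at 0.312, 0.304 and 0.250 in the control and at 0.106, 0.397 and 0.288 in Taf4IEC. Its log2 ratio with 0 Neurog3 UMIs was -1.56 (-2.67 to -0.57), from 40 and 11 UMIs. A single control cell held 15 of the 40, and no Taf4IEC cell held more than 2. At 5000 UMIs Pax4 was seen in 11.3% (5.99 to 18.9) of control cells without Neurog3 and in 6.78% (1.88 to 16.5) of such Taf4IEC cells, so these intervals overlapped. Over the 100 draws the median log2 ratio of Pax4 was -1.05 and its value nearest to 0 was -0.10, with the interval below 0 in 74. Isl1 had a ratio of -0.57 (-0.95 to -0.20) there, which ran from -0.76 to 0.09 over the draws with the interval below 0 in 51. In the top range Isl1 gave 1.24 (0.34 to 2.22), from 14 and 42 UMIs, and ran from -0.67 to 3.28, with the interval above 0 in 46 draws.

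Neurod1 and Nkx2-2 differed most between the libraries in the cells with Neurog3. Neurod1 was at 4.68, 3.74 and 2.12 in the control and at 6.28, 6.17 and 5.25 in Taf4IEC. The log2 ratio was 0.43 (0.26 to 0.59) with 0 Neurog3 UMIs, 0.72 (0.46 to 0.99) with 1 to 4 and 1.31 (1.00 to 1.63) with 5 or more. Nkx2-2 was at 1.16, 1.09 and 0.771 in the control and at 1.28, 2.43 and 1.85 in Taf4IEC, with ratios of 0.14 (-0.21 to 0.49), 1.16 (0.69 to 1.65) and 1.26 (0.74 to 1.81). Fev had its largest ratio in the top range as well, 2.17 (1.23 to 3.24), from 11 and 63 UMIs. In the top range the intervals lay above 0 in 100 of the 100 draws for Neurod1 and Nkx2-2, with ratios of 0.59 to 1.95 and 0.67 to 1.77, and in 99 for Fev, with 0.80 to 2.68. Neurog3 itself was at 15.3 and 22.8 in that range, which has no upper limit, and Chga had a ratio of 1.63 (1.31 to 1.96) there. Whether these cells of the 2 libraries stood at the same stage was not tested.

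**Figure D4:**
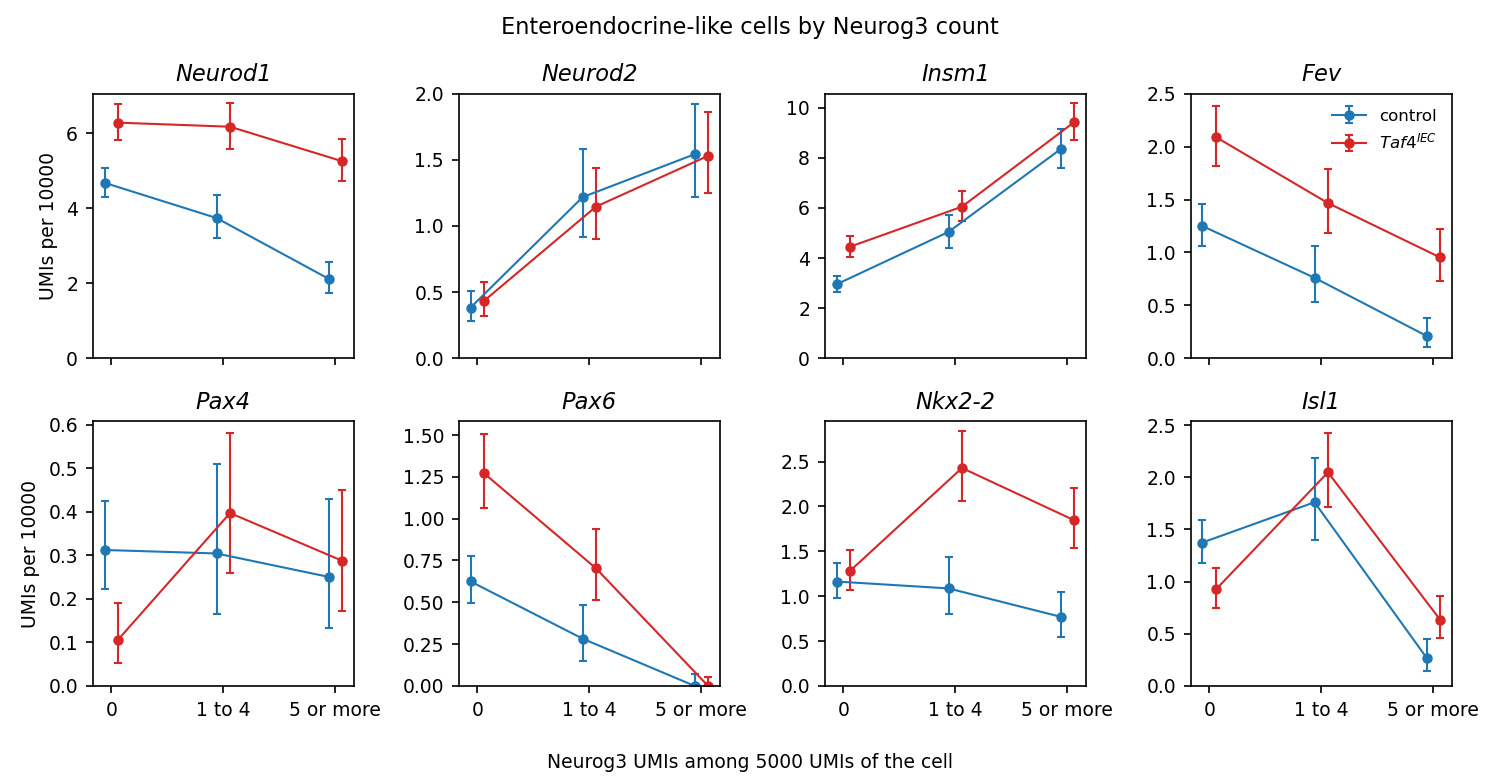
Level of the other 8 factors (UMIs per 10000, linear axes) in enteroendocrine-like cells with 0, 1 to 4 or 5 or more Neurog3 UMIs among 5000, in the control (blue) and Taf4IEC (red), with exact 95% Poisson intervals. Insm1 and Neurod2 are higher to the right and Pax6 reaches 0 in the draw shown, while Neurod1 is at 2.12 in the control and 5.25 in Taf4IEC at the right end.

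The same cells were also split by hormone genes. Cells with 2 or more UMIs of Tph1, the enzyme that makes serotonin, formed 1 class, 17 in the control and 25 in Taf4IEC. Of the rest, those with 10 or more UMIs summed over Gcg, Cck, Sst, Gip, Nts, Pyy and Ghrl formed a peptide class, 36 and 34 cells, and the hormone-low class took 127 and 65. Of the Tph1 cells, 12 in the control and 18 in Taf4IEC also met the peptide limit, with Cck at 65.8 and 38.6 per 10000 over the Tph1 cells, so the class is not free of peptide hormones. Near the limits stood 7 and 4 cells with 1 or 2 Tph1 UMIs, and 11 and 10 within 3 UMIs of the peptide limit. Median depths were 8076, 11609 and 12325 UMIs in the Tph1, peptide and hormone-low cells of the control and 12127, 22516 and 19333 in those of Taf4IEC.

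No Isl1 UMI was counted in Tph1 cells. It had 0 UMIs of 157035 in the control Tph1 cells and 0 of 310353 in those of Taf4IEC, where 3 UMIs would be 0.191 and 0.0967 per 10000. In peptide cells it was at 2.53 (2.08 to 3.05) and 1.60 (1.32 to 1.92), and in hormone-low cells at 0.965 (0.822 to 1.13) and 1.18 (1.00 to 1.38). Cells with 5 or more UMIs of a single hormone formed groups that overlap. Among the groups of Gcg, Cck, Pyy, Ghrl, Tph1 and Tac1, Isl1 was highest with Ghrl, the gene of ghrelin. Isl1 was at 6.20 (4.95 to 7.66) in 14 control and 3.80 (3.01 to 4.74) in 10 Taf4IEC cells with Ghrl. The groups of Sst, Gip and Nts were too small for a level. The Taf4IEC cluster of 29 cells led by Tph1 and Tac1 also had 0 Isl1 UMIs.

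Pax6 was higher in peptide than in hormone-low cells. It was at 1.61 (1.26 to 2.03) in control and 1.82 (1.52 to 2.16) in Taf4IEC peptide cells, against 0.138 (0.0874 to 0.207) and 0.221 (0.148 to 0.317) in hormone-low cells. With Gcg, the gene of glucagon-like peptides, it reached 2.36 (1.73 to 3.14) and 2.37 (1.89 to 2.94), 14 cells in each library. Tph1 cells had 0 Pax6 UMIs in the control and 16 in Taf4IEC, in 12 of 25 cells, a level of 0.516 (0.295 to 0.837). The upper limit of the control, 0.235, lay below that interval.

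Fev and the early factors were ordered differently. Fev was highest in Tph1 cells, at 2.67 (1.93 to 3.62) in the control and 3.00 (2.42 to 3.67) in Taf4IEC. Peptide cells of the control followed at 1.54 (1.19 to 1.96), those of Taf4IEC at 2.20 (1.88 to 2.57). These intervals overlapped those of Tph1 cells in each library. Tph1 over peptide cells gave Fev log2 ratios of 0.80 (0.20 to 1.37) and, for Taf4IEC, 0.44 (0.06 to 0.82). Hormone-low cells had the lowest Fev levels, 0.582 and 0.930. Neurog3 was highest in hormone-low cells, at 5.89 in the control and 12.6 in Taf4IEC, and lowest in Tph1 cells, at 0.191 and 0.677. Neurod2 and Insm1 had the same order as Neurog3 in both libraries. Neurod1 was highest in peptide cells, at 6.53 and 7.54. Nkx2-2 varied least between classes, from 0.989 to 1.27 in the control and from 1.42 to 2.01 in Taf4IEC. Pax4 had 1, 8 and 58 UMIs in Tph1, peptide and hormone-low cells of the control, levels of 0.0637 (0.00161 to 0.355), 0.184 (0.0794 to 0.363) and 0.348 (0.264 to 0.450) whose intervals overlapped in part. In Taf4IEC it had 11, 4 and 41, and its level in peptide cells, 0.0547 (0.0149 to 0.140), lay below those in Tph1 cells, 0.354 (0.177 to 0.634), and hormone-low cells, 0.312 (0.224 to 0.424).

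Between the libraries, Nkx2-2 and Neurod1 had their larger ratios in hormone-low cells. Neurog3 was higher in Taf4IEC in hormone-low cells and, by an amount that moved with the draw, in peptide cells. In hormone-low cells Nkx2-2 had a log2 ratio of 1.02 (0.74 to 1.31) and Neurod1 of 0.80 (0.64 to 0.96). In peptide cells Nkx2-2 was at 0.20 (-0.29 to 0.70) and Neurod1 at 0.21 (-0.00 to 0.42), and in Tph1 cells at 0.22 (-0.57 to 1.05) and 0.06 (-0.44 to 0.57). Neurog3 was at 1.10 (0.98 to 1.21) in hormone-low cells, at 1.28 (0.74 to 1.86) in peptide cells, from 35 and 143 UMIs, and at 1.82 (0.08 to 4.21) in Tph1 cells, from 3 and 21 UMIs. Over the 100 draws its interval left out 0 in 100, 80 and 39. In peptide cells a single Taf4IEC cell held 52 of the 143 Neurog3 UMIs. The Neurog3 ratio ran from 0.14 to 1.36 in peptide cells, with a median of 0.65. In Tph1 cells it ran from -1.11 to 2.18, so its sign there moved with the draw. Isl1 was lower in Taf4IEC peptide cells, with a ratio of -0.66 (-1.05 to -0.27) that ran from -1.01 to -0.49 over the draws, and Insm1 was higher in all 3 classes, with 0.54 (0.41 to 0.68) in hormone-low, 0.66 (0.38 to 0.95) in peptide and 1.08 (0.42 to 1.78) in Tph1 cells. The makeup of the peptide class by hormone was not held equal between the libraries.

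**Figure D5:**
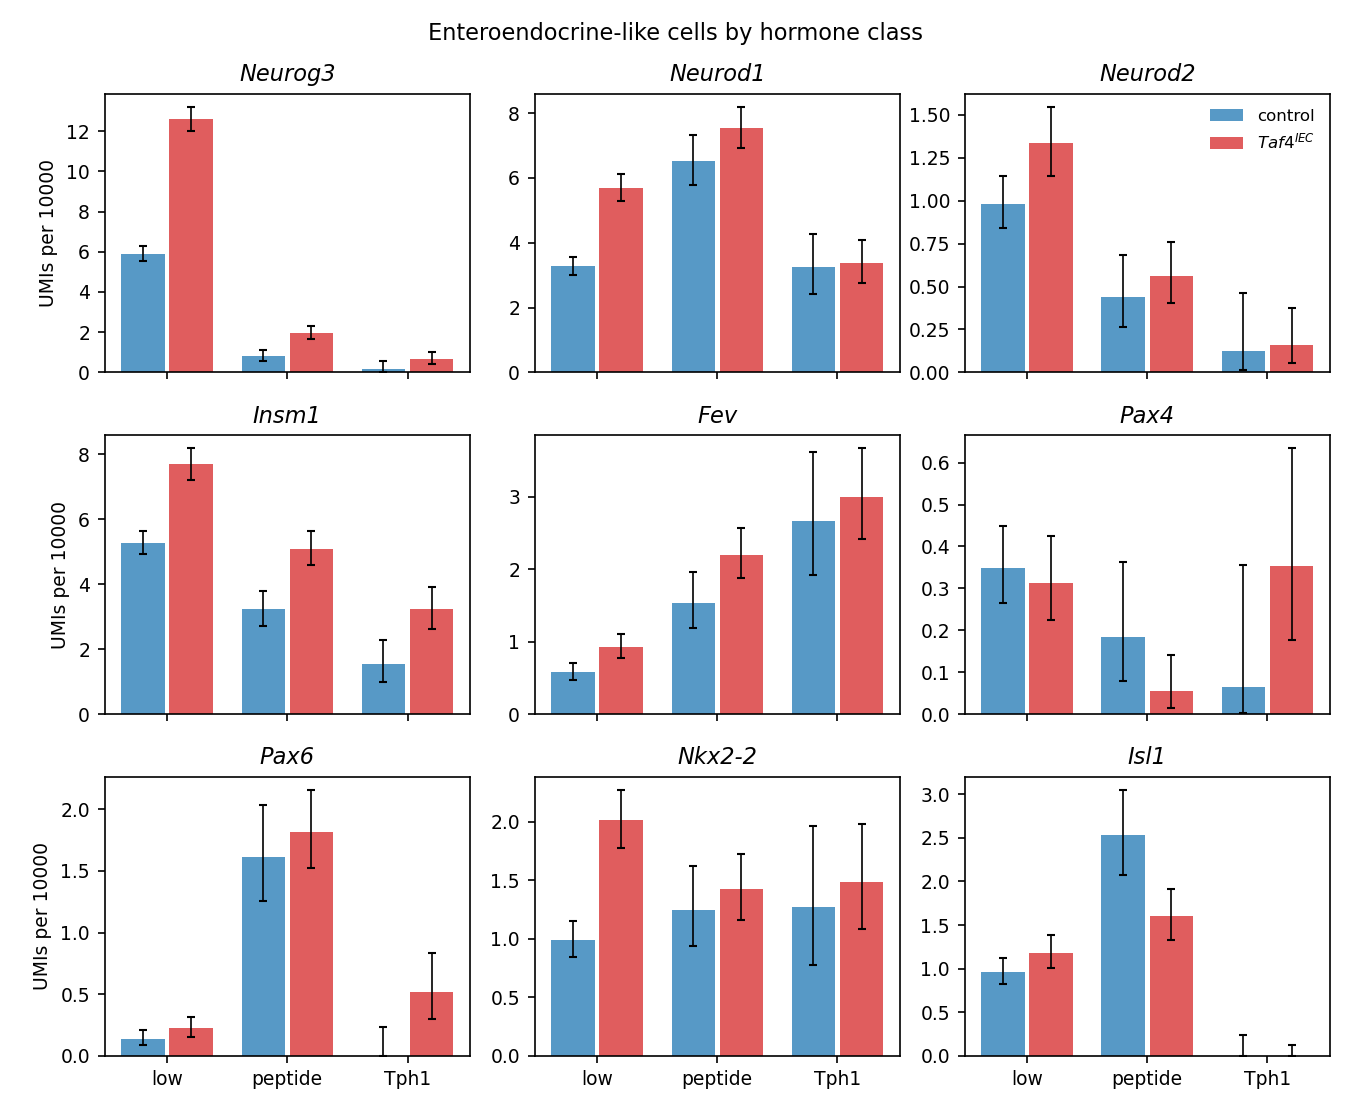
Level of each factor (UMIs per 10000, bars from 0) in hormone-low, peptide and Tph1 enteroendocrine-like cells of the control (blue) and Taf4IEC (red), with exact 95% Poisson intervals. Isl1 has no bar in Tph1 cells of either library, Pax6 is highest in peptide cells and Fev in Tph1 cells.

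Other regulators of the lineage were taken from a list of 21. Of these, 16 had 20 or more UMIs in enteroendocrine-like cells, and 0 were at least 2-fold higher or lower, where 7.83% and 2.33% of 10173 genes were, with a median log2 ratio of 0.16 beside 0.25 over all genes. The highest were Myt1 at 0.82 (0.38 to 1.27), Lmx1a at 0.68 (0.11 to 1.26) and Etv1 at 0.68 (0.46 to 0.90). The lowest were Pdx1 at -0.91 (-2.19 to 0.28) from 18 and 10 UMIs, Mnx1 at -0.07 (-1.01 to 0.88) and Sox4 at -0.01 (-0.09 to 0.08). Rfx6, which acts after Neurog3, gave 0.15 (-0.10 to 0.41).

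Of 11 Notch pathway genes 9 were tested in the class, with 1 at least 2-fold higher and 1 at least 2-fold lower, beside 7.83% and 2.33% of all 10173 genes. Hes1, the Notch target that represses Neurog3, had 99 UMIs in the control and 21 in Taf4IEC enteroendocrine-like cells, 0.418 and 0.0847 per 10000, a log2 ratio of -2.30 (-3.06 to -1.61). Lfng, a glycosyltransferase that modifies Notch, had 11 and 47 UMIs, a ratio of 2.03 (1.06 to 3.13). The other extremes were Jag1 at 0.56 (-0.22 to 1.36) and Rbpj at 0.54 (0.12 to 0.97) on the high side, and Mfng at -0.43 (-0.94 to 0.08) and Numb at -0.27 (-0.99 to 0.44) on the low side. The ligand Dll1 was at 0.20 (-0.48 to 0.89).

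Across the 28 clusters of both libraries, genes with a pattern like that of each factor were ranked by Pearson's r on a log scale, among 9998 genes. Neurod1 was nearest to Gng2 (0.98), Rfx6 (0.98) and Cacna2d1 (0.97), and Pax6 to Cacna2d1 (0.97), Snap25 (0.96) and Rfx6 (0.96). Fev was nearest to Rab3c (0.97), Neurod1 (0.96) and Scg2 (0.95), and Neurod2 to Hmgn3 (0.94), Lrp11 (0.93) and Rfx6 (0.93). For Pax4 the genes were Ncam2 (0.98), Ptprn2 (0.96) and Peg3 (0.94), and for Nkx2-2 Nefm (0.95), Scgn (0.93) and Trp53i11 (0.93). Insm1 was closest to Aplp1 (0.89), Trp53i11 (0.88) and Pcsk1 (0.87). Isl1 stood nearest to Gip (0.85) and Ffar1 (0.84), and Neurog3 to Fgd2 (0.83), Cbfa2t3 (0.83) and Epb42 (0.82). Clusters of 1 library share depth and handling, and 5 enteroendocrine-like clusters carry most of these patterns, so the coefficients are descriptions only.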

How the data were processed

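Per the labels and the submitters' processing notes, reads were handled with bcl2fastq 2.17.1.14 and Cell Ranger 3.1 on mm10, and the authors deposited whole-number UMI counts per gene and cell, not normalized. Every deposited cell had 200 to 6000 genes and under 15% mitochondrial UMIs, the filter stated in the methods. The submitters used Seurat 3.1.4. Here each library was clustered alone in Seurat 5.3.0 (R 4.3.3) with log-normalization, 2000 variable genes less the 9 factors, UMI number and mitochondrial percent regressed out, 20 principal components and resolution 0.9. A cluster took the class with the most markers, at least 3, each with at least 10 UMIs and 1.5 times its mean level. It still stayed unnamed if its 10 leading genes pointed more to a different class. The same held if none of them was its own marker and low-quality RNAs or low depth were seen. In Taf4IEC a cluster of 475 cells with 5 enteroendocrine markers and a median of 618 UMIs was therefore unnamed. So was a cluster of 108 cells with 6 stem markers and a median of 996.5 UMIs. Levels, ratios and shares were computed in Python 3.11.15 (numpy 2.4.6, scipy 1.17.1, pandas 2.3.3) with exact Poisson, conditional binomial and Clopper-Pearson intervals and Newcombe's square-and-add differences, all 95%, after a test on simulated counts. Ratios needed at least 20 UMIs over both libraries. Likeness used log2 of the level plus 0.01 and genes with at least 200 UMIs. Doublets were sought with Scrublet in scanpy 1.11.5. The members, marker lists and splits were chosen with earlier results of these data known. The genes named besides the members are the 3 highest and 3 lowest of each list, Rfx6, Hes1, Taf4, the hormone genes, the 3 genes most like each factor and the leading genes of clusters. Dll1, Atoh1, Chga and Sox4 were added as markers of stage after the values were seen. A further gene that this rule names is not reported here.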

Additional observations from a re-analysis of the deposited data

How the results depend on the processing

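Of 126 values recomputed for single factors under the alternatives, 107 moved by less than their counting interval, 19 moved by more and 0 changed sign with an interval that left out 0. In enteroendocrine-like cells 3 values with intervals holding 0 crossed it, Neurod2 to -0.05 without ribosomal and low-quality genes in the total, Pax4 to 0.03 with cells chosen by marker UMIs and Isl1 to 0.05 with the factors among the variable genes. The count of members at least 2-fold higher over all cells was 5 and became 8 with a limit of 1.5-fold. In enteroendocrine-like cells it was 0, became 4 at 1.5-fold and 1 where cells were chosen by marker UMIs without clusters. That 1 was Neurog3, at a log2 ratio of 1.51 (1.25 to 1.78), and 54.6% of the Taf4IEC cells chosen so were in the clustered class. The share of all genes was not counted at 1.5-fold or in cells chosen by marker UMIs. Whether these counts of members exceed that of genes in general is therefore not known. Leaving the ribosomal and low-quality genes out of the total shifted every log2 ratio by -0.18 over all cells and by -0.23 in the class, where the ratios of Neurog3, Neurod1 and Insm1 were 0.54, 0.32 and 0.21 and the intervals of Isl1 and Pax4 lay below 0. The difference in the enteroendocrine-like share was 5.90 points (3.29 to 8.66) among cells with at least 2000 UMIs, 8.50 (6.43 to 10.6) with cells chosen by marker UMIs and 2.23 (0.33 to 4.17) at resolution 1.4, but 0.37 (-1.44 to 2.23) at resolution 0.5 and 0.33 (-1.49 to 2.19) with both libraries clustered together. For at least 2 factors per cell the difference was 13.0 points (2.59 to 22.8) at 2000 UMIs per cell, 9.55 (2.95 to 15.8) with another random draw, and turned to -6.36 points (-15.0 to 2.31) without thinning, where shallow cells enter. The 100 repeats of the thinning, which redrew the UMIs of the same cells, were added after seeing the data. The cause of the other shifts was not tested. No paired analysis was possible because each condition had 1 library, and for the same reason no library could be left out. Intervals cover counting error only. For Pax4, with 72 and 58 UMIs in the class, and for Pax6, the depth sets wide intervals.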
